A study of Trichoderma guizhouense with 100 samples.

Results

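The autophagy and vacuole proteins of Trichoderma guizhouense NJAU4742, a filamentous fungus that grows on plant biomass, were followed as 58 of the 11244 genes of the deposited expression table. A gene was a member if its annotation named autophagy or the vacuole, or held an ATG or APG name with a number, and held none of the words protease, peptidase, proteinase, MFS, amino acid, SNARE, syntaxin and mitochond. The words matched 65 rows, 7 of which were left out. By annotation, 11 members belonged to the autophagy machinery, 32 to vacuolar protein sorting, 5 to import, fusion and inheritance of the vacuole, 3 to polyphosphate metabolism, 3 to the vacuolar proton pump and 4 to other vacuolar functions.

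Autophagy wraps parts of the cytoplasm in a membrane and delivers them to the vacuole, where they are broken down and their building blocks are returned to the cell. The fungal vacuole, the counterpart of the animal lysosome, is acidified by a proton-pumping ATPase, stores polyphosphate, and receives its enzymes and outworn membrane proteins through a sorting route that leads over endosomes. In fungi autophagy is known above all as a response to nutrient shortage. The roles given below are taken from the annotation or are mostly those known from the yeast Saccharomyces cerevisiae, and none was tested here.

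The wild type (WT) and strains lacking a regulator of plant cell wall degrading enzymes were compared. In ∆Tgxyr1, ∆Tgace1 and ∆Tgace2 the gene Tgxyr1, Tgace1 or Tgace2 had been replaced by the hygromycin resistance cassette hph, and the sources used here do not say whether a strain was 1 transformant or several. Mycelium was grown in 2% glucose (0 h), washed, and moved to medium with 1% xylan from sugarcane bagasse, with 1% Avicel (crystalline cellulose), or, for WT and ∆Tgxyr1 alone, with no carbon source (carbon starvation, CS), and polyadenylated RNA was sequenced after 4, 24 and 72 h. The 100 libraries made 34 groups, 10 each for WT and ∆Tgxyr1 and 7 each for ∆Tgace1 and ∆Tgace2, with 3 libraries in every group except WT CS at 4 h and at 72 h, which had 2. The methods of the study call the libraries of a group biological replicates. The labels do not say that they came from separate cultures. By the methods a portion of the broth was taken at each sampling time, so libraries of different times may come from the same culture. The model treats all libraries as independent. The p-values measure only the spread between libraries of the same group, pooled over all 34 groups, and not that of the compared groups alone.

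Values are RPKM, that is reads scaled to the length of the gene and to the size of the library. The authors also normalised them across libraries, and they are relative values. A change in 1 gene, in the RNA content of the cells and in the makeup of the mycelium therefore cannot be told apart. The sum of RPKM over all genes ran from 553844 to 3295522 between libraries. After 24 h of starvation it was 2292492 to 3010430 in ∆Tgxyr1 and 1077217 to 1198960 in WT. The cause of this spread was not tested. A member was called higher or lower when the limma model over all 10026 genes tested gave an adjusted p of at most 0.01, a difference of at least 1 on the log2(RPKM + 1) scale and, in the group with the higher level, a mean over 2 RPKM. All differences below are on that scale, with the standard error after the ± sign, and the adjusted p is limma's after Benjamini-Hochberg correction over all genes tested. The percentage in parentheses beside the first count of members in a comparison is the share of all tested genes called there in the same direction.

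Tgxyr1 transcripts were at 0 to 0.168 RPKM in the ∆Tgxyr1 libraries and at 1.29 to 143 RPKM in WT, and Tgace2 transcripts at 0 to 0.163 RPKM in ∆Tgace2 and at 1.59 to 8.09 RPKM in WT. Tgace1 was not analysed here, so the label ∆Tgace1 was not checked in this way. There were 6 libraries that stood apart from the others of their group, namely WT Avicel 72 h replicate 2 and, in ∆Tgace1, glucose 0 h replicate 3, xylan 24 h replicate 2, Avicel 4 h replicate 2, Avicel 24 h replicate 1 and Avicel 72 h replicate 3. Being nearest, by the correlation across genes, to a library of another group was part of the rule that picked each of them. WT Avicel 72 h replicate 2 was nearest to replicate 2 of WT starvation at 72 h, and the ∆Tgace1 libraries of glucose 0 h, xylan 24 h and Avicel 4 h were nearest to libraries of ∆Tgace2. Whether any was exchanged with another was not tested. Many of the results that rest on them, but not all, are given with and without them below. The third WT library at 0 h also stood off for several members, as shown with their values.

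The members were well expressed. The median over members of the median RPKM over the 100 libraries was 26.8, beside 7.33 over all genes, and 44 of the 58 members had a median above 10 RPKM, as did 45.2% of all genes. ATG8 was the most abundant with a median of 942 RPKM, followed by OPB40277, annotated only as a hypothetical protein of the vacuolar membrane, with 441 RPKM and Vps66 (OPB44902) with 293 RPKM. The lowest were a gene for Atg22 (OPB45316), with 2.94 RPKM, a gene for VPS1 (OPB46729), with 0.611 RPKM, and Vps62 (OPB44535). Vps62 was at 0 in 83 libraries, never passed 0.288 RPKM and was the only member not tested. In all, 57 members were tested, and Vps55 and Vps74 were called in none of the comparisons made.

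In WT the share of members called was below that of all genes on every medium and in both directions, a difference that was not tested. On xylan 13 of 57 members were higher than at 0 h at one or more of the time points (30.2% of all genes) and 12 were lower (24.9%). On Avicel 10 were higher (22.1%) and 11 lower (20.2%), and under carbon starvation 10 were higher (25.6%) and 10 lower (25.1%). Of these, 3 higher members on xylan, 1 on Avicel and 2 under starvation passed 4-fold (13.5%, 8.67% and 10.3% of all genes), and 0, 2 and 3 lower members did (9.19%, 7.60% and 11.7%). The count of members lower under starvation was the least stable of the 6. It was 5 without WT glucose 0 h replicate 3 and 13 without replicate 1 or replicate 2 of that group.

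**Figure D1:**
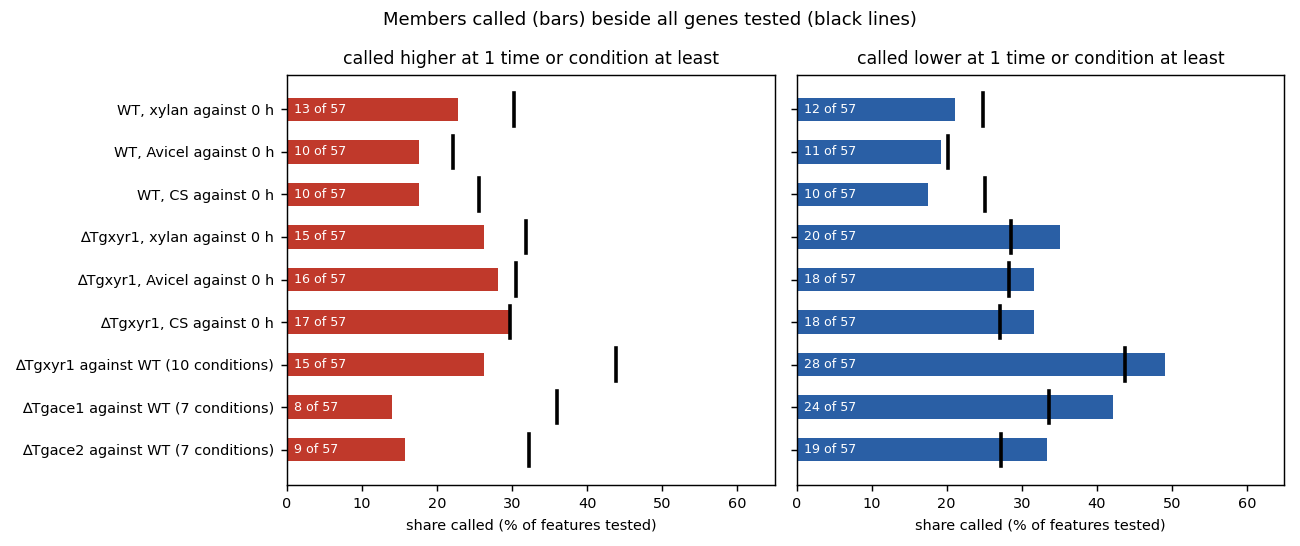
Bars give the percentage of the 57 tested members called higher (left panel) or lower (right panel) in each set of comparisons (vertical axis), and black lines give the same percentage for all 10026 tested genes. In WT every bar ends short of its line, and in ∆Tgace1 against WT the members called higher (8 of 57) end under the line at 36.0%.

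The conjugation system that attaches ATG8 to the autophagosome membrane moved in part. ATG8 itself (OPB43513), a ubiquitin-like protein, was at 1169.5, 1248 and 1409 RPKM at 0 h in WT, at 1296, 1376 and 1077 after 24 h of starvation and at 888 and 751 after 72 h. These groups overlapped or differed by less than the size needed for a call, and ATG8 was called in none of the 9 WT comparisons with 0 h. Its enzymes had other profiles. For ATG3 (OPB38528), the conjugating enzyme, the WT libraries had 56.0, 58.7 and 71.8 RPKM at 0 h, 47.5, 64.7 and 42.4 after 24 h on xylan, 138, 157 and 127 after 24 h on Avicel and 223, 230.5 and 214 after 24 h without carbon. All Avicel and starved libraries of that time lay above all 0 h and xylan libraries. ATG3 rose by 1.17 ± 0.28 on Avicel (adjusted p = 0.000288) and by 1.83 ± 0.28 under starvation (8.88e-08), and was 2.11 ± 0.28 lower on xylan than under starvation (-2.11, adjusted p = 2.31e-09).

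The activating enzyme atg-7 (OPB44067) followed the same order in WT. It was at 27.0, 26.8 and 23.3 RPKM at 0 h, at 30.9, 29.6 and 25.8 after 24 h on xylan, at 79.9, 81.6 and 58.1 on Avicel and at 112, 110.1 and 106 under starvation. Every Avicel and starved library was above every glucose and xylan library. The differences from 0 h were 1.46 ± 0.25 on Avicel (adjusted p = 1.16e-06) and 2.05 ± 0.25 under starvation (2.55e-10), and by 72 h the starved libraries were back at 38.3 and 35.0 RPKM. The complex of ATG5 and Atg16, which guides the final transfer of ATG8 to lipid, did not move as a pair. ATG5 (OPB37455) was at 9.74, 11.1 and 9.61 RPKM at 0 h against 29.8, 38.6 and 39.1 after 72 h on xylan, a rise of 1.71 ± 0.19 (5.96e-12). Atg16 (OPB46714) was at 18.4, 18.4 and 30.1 RPKM at 0 h against 8.44, 6.40 and 8.8 in the same xylan libraries, a fall (-1.36 ± 0.28, adjusted p = 2.41e-05).

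Of the proteins that build and feed the autophagosome, Atg9 moved most in WT. Atg9 (OPB36945), the membrane protein of the vesicles that supply the growing autophagosome, was at 17.7, 17.1 and 21 RPKM at 0 h, 25.2, 26.1 and 26.0 after 24 h on xylan, 56.6, 61.3 and 42.2 on Avicel and 63.1, 65.3 and 61.9 under starvation. The starved and Avicel libraries were all above the others, and the rises were 1.72 ± 0.22 (adjusted p = 6.16e-10) and 1.46 ± 0.22 (4.51e-08). ATG18 (OPB41674), which binds the lipid phosphatidylinositol 3-phosphate on the forming membrane, stayed between 25.1 and 60.2 RPKM in all WT libraries and was called in no WT comparison with 0 h. Apg6 (OPB44263), a subunit of the kinase that makes this lipid, was at 7.49, 7.81 and 17.6 RPKM at 0 h and was not called against it. At 24 h it was at 4.76, 5.10 and 5.29 RPKM on xylan and at 13.1, 13.9 and 12.2 under starvation, without overlap (-1.22 ± 0.23, adjusted p = 9.42e-06).

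At the vacuole end of autophagy, the lipase Atg15 (OPB46645) opens the delivered bodies and Atg22 exports amino acids. In WT Atg15 was at 151, 143 and 175 RPKM at 0 h and was not called against it at any time, but after 72 h it was at 297, 318 and 280.1 RPKM on xylan and at 81.9 and 80.3 under starvation (1.86 ± 0.23, adjusted p = 1.36e-10). The annotation names 2 Atg22 genes. The abundant one, OPB37034, was at 51.5, 52.7 and 56.1 RPKM at 0 h in WT, 143, 156 and 165 after 24 h on xylan and 195, 172 and 160.2 after 72 h, which made it one of the members that rose on xylan (1.52 ± 0.22, adjusted p = 3.26e-08 at 24 h, and 1.70 ± 0.22, 5.09e-10 at 72 h). Under starvation it was at 80.6, 79.0 and 78.3 RPKM after 24 h and at 33.1 and 29.6 after 72 h, neither of them called. The other gene, OPB45316, stayed between 1.01 and 3.31 RPKM in WT.

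Counted over all 11 autophagy genes, 3 rose and 0 fell after 24 h of starvation (ATG3, atg-7 and Atg9), with a median difference of 0.45 beside 0.00 over all genes, and 7 had an unadjusted p of limma under 0.05, all of them higher. After 24 h on Avicel the count was again 3 and 0 (5 and 0 at the unadjusted p), with a median of 0.40 beside 0.06. After 24 h on xylan 1 of the 11 rose (12.8% of all genes), with a median of 0.12, and 0 fell (1 at the unadjusted p). Over all 57 members, 6 were higher and 6 lower after 24 h of starvation (15.6% and 16.0% of all genes), and 8 and 8 after 24 h on Avicel (17.4% and 17.2%).

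**Figure D2:**
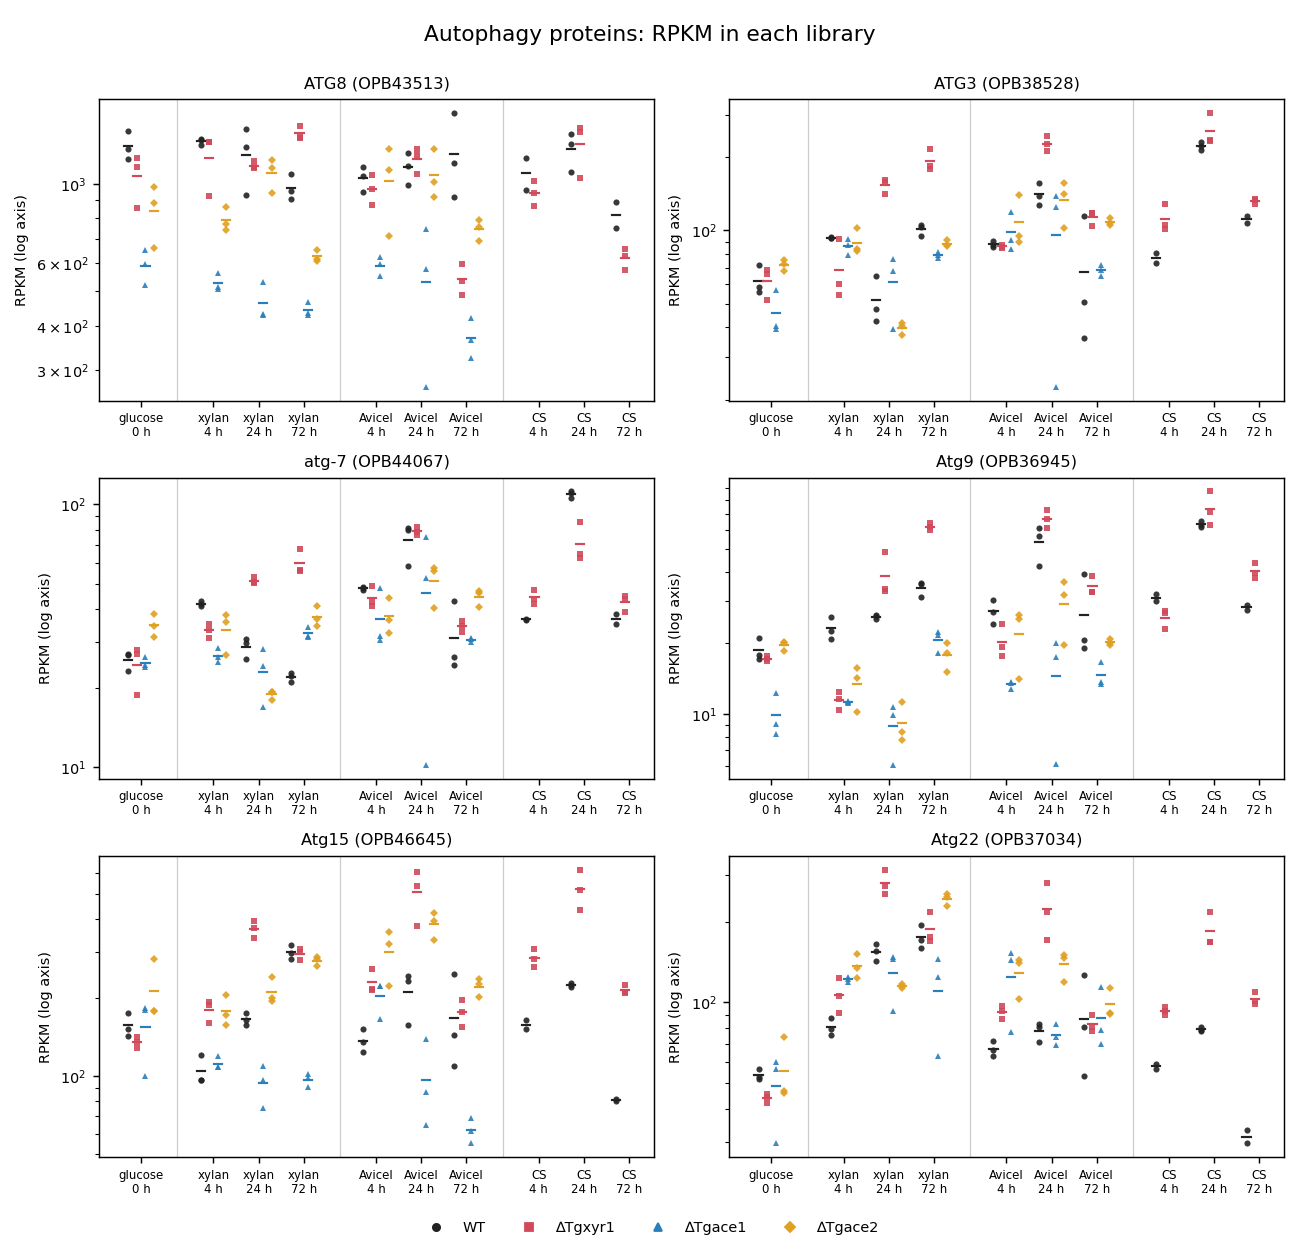
RPKM (log axis) of 6 autophagy genes in every library, by medium and time, with the strains in separate colours, points for libraries and short bars for group means. ATG3, atg-7 and Atg9 rise at 24 h on Avicel and without carbon but not on xylan in WT, ATG8 lies lower in ∆Tgace1, and Atg15 and Atg22 (OPB37034) are highest in ∆Tgxyr1 at 24 h.

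Avicel and starvation were also compared with each other in WT at 24 h. No member was called different between them, either higher or lower (1.08% and 1.13% of all genes). Smaller differences remained, since 10 of the 57 had an unadjusted p of limma under 0.05, 4 of them higher and 6 lower on Avicel. Vps23 (OPB35930) was the nearest to a call (-0.83, adjusted p = 0.00940). For ATG3, atg-7 and Vps66 every starved library was above every Avicel library. Between xylan and starvation at 24 h, 5 members were higher on xylan (16.7%) and 8 lower (15.0%). The higher ones included Vps11 (OPB39686), a core subunit of the tethering complexes HOPS and CORVET. It was at 79.5, 77.2 and 78.1 RPKM on xylan, 18.2, 18.6 and 17.6 under starvation and 20.2, 18.3 and 18.3 on Avicel, against 76.3, 77.8 and 68.1 at 0 h, so that only the xylan libraries lay at the glucose level (2.05 ± 0.19 against starvation, adjusted p = 9.76e-15). Vac14 (OPB36968), the scaffold of a lipid kinase complex of the vacuole, had the opposite order. It was at 12.5, 13.0 and 10.9 RPKM at 0 h, 8.89, 8.95 and 8.5 on xylan, 39.9, 35.5 and 36.8 on Avicel and 34.5, 37.1 and 35.9 under starvation, with no overlap between the last 2 groups and the rest (1.49 ± 0.24 against 0 h under starvation, adjusted p = 4.01e-07).

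At 72 h the Avicel libraries of WT did not agree among themselves. Replicate 2 was near the starved libraries where the other libraries were not. OPB40277 was at 523, 85.0 and 727 RPKM in the 3 Avicel libraries and at 51.6 and 52.4 under starvation, Vac14 at 13.1, 49.9 and 10.3 RPKM beside 43.3 and 41.3, and BRO1 (OPB38044) at 174, 30.3 and 234 RPKM beside 20.4 and 20.2. Counts on Avicel changed little without it, with 11 members lower than at 0 h as before.

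The sorting genes of WT moved in both directions on every medium. The receptor Pep1/Vps10 (OPB46871), which carries carboxypeptidase Y to the vacuole, was at 23.2, 22.5 and 32.6 RPKM at 0 h against 7.72, 7.23 and 7.78 after 4 h on xylan, 9.69, 10.1 and 10.8 on Avicel and 16.7 and 18.2 under starvation. Every one of these was below every 0 h library, and the falls on xylan (-1.64 ± 0.19, adjusted p = 4.43e-11) and Avicel (-1.26 ± 0.19, 1.53e-07) passed the test. The ubiquitin receptor Vps27 (OPB36298), which starts the sorting of membrane proteins into the endosome, was at 28.5, 30.1 and 43.4 RPKM at 0 h and 9.02, 9.70 and 10.4 after 4 h on xylan (-1.69 ± 0.19, 2.06e-11). After 24 h on xylan it was back at 21.4, 18 and 24.8 RPKM, which was not called.

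The ESCRT machinery, which buds vesicles into the endosome, was split. Vps2 (OPB41091), a subunit of ESCRT-III, was at 71.5, 81.4 and 97.3 RPKM at 0 h in WT, 236, 242 and 306 after 24 h on xylan and 864, 755 and 744 after 72 h. These 3 groups did not overlap, and the rise at 72 h was the largest of any member on xylan (3.23 ± 0.25, adjusted p = 1.38e-18). On Avicel at 24 h it was at 236, 273 and 192 RPKM and under starvation at 229, 223 and 220.2 (1.47 ± 0.25, 6.13e-07, and 1.43 ± 0.25, 1.37e-06), and at 72 h of starvation back at 81.3 and 73.7. Vps4 (OPB36472), the ATPase that takes ESCRT-III apart, was at 14.6, 18.7 and 13.3 RPKM at 0 h and 52.2, 49.8 and 49.1 after 4 h on xylan (1.65 ± 0.18, 3.32e-12). BRO1, which brings a deubiquitinating enzyme to ESCRT-III, went the other way, from 121, 127 and 89.0 RPKM at 0 h to 31.7, 32.5 and 34.6 after 72 h on xylan (-1.72 ± 0.32, 3.53e-06) and to 20.4 and 20.2 after 72 h of starvation (-2.40 ± 0.36, 3.37e-08). Vps23, of ESCRT-I, was at 31.7, 28.4 and 32.8 RPKM at 0 h against 11.8, 14.5 and 13.8 after 72 h on xylan (-1.16 ± 0.22, 5.96e-06).

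Vps13 (OPB46474), a protein that transfers lipids between membranes, was among the members that rose furthest on xylan. WT libraries had 23.0, 24.4 and 16.0 RPKM at 0 h, 66.4, 29.8 and 54.3 after 24 h and 108, 102 and 128 after 72 h, against 22.1 and 23.1 after 72 h of starvation. The 72 h xylan libraries lay above all the other WT libraries (2.37 ± 0.25 against 0 h, adjusted p = 4.85e-13). Vps66, for which no role is given here, fell under starvation from 315, 302 and 233 RPKM to 114, 115 and 112 at 24 h and 44.6 and 46.0 at 72 h (-2.61 ± 0.40 at 72 h, 5.23e-08).

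Among the tethering factors that fuse endosomes with each other and with the vacuole, HOPS subunit Vps41 rose and CORVET subunit Vps3 fell in WT. Vps41 (OPB36717) was at 9.65, 8.97 and 6.82 RPKM at 0 h, 23.1, 18.4 and 20.7 after 24 h on Avicel and 22.2 and 21.3 after 72 h of starvation (1.21 ± 0.17, adjusted p = 1.37e-08, and 1.27 ± 0.19, 5.53e-08). Vps3 (OPB45037) was at 11, 11.6 and 37.7 RPKM at 0 h, with the third library far above the others, and at 4.12, 4.27 and 5.05 after 4 h on xylan (-1.72 ± 0.22, 7.22e-10). After 24 h it was at 14.8, 12.6 and 14.1 RPKM on xylan, in the range of the 0 h libraries, but at 6.32, 5.15 and 5.49 on Avicel and 5.33, 7.83 and 7.48 under starvation. VPS9 (OPB45668), the exchange factor of a Rab5-type GTPase, was at 5.70, 3.98 and 22.8 RPKM at 0 h, again with the third library apart, and was not called in WT.

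The vacuole's own functions had their largest changes in OPB40277 and in OPB37257, annotated as a probably vacuolar acid sphingomyelinase, an enzyme that cleaves sphingomyelin. OPB40277 was at 658, 661 and 540.1 RPKM at 0 h in WT and at 1109, 1441 and 1412 after 24 h on xylan, while it was at 124, 134 and 105 on Avicel and 149.7, 143 and 140.0 under starvation. The xylan libraries were the highest and the Avicel and starved libraries the lowest, without overlap. The falls were -2.35 ± 0.37 (adjusted p = 1.57e-07) and -2.09 ± 0.37 (2.23e-06), and the difference between xylan and starvation was 3.18 ± 0.37 (5.31e-11) at 24 h and 4.74 ± 0.42 (8.31e-16) at 72 h.

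The acid sphingomyelinase had a mirror-image profile. It was at 6.75, 8.18 and 11.9 RPKM at 0 h, at 2.28, 2.86 and 3.74 after 24 h on xylan, and at 98.2, 103 and 82.2 on Avicel and 99.2, 101 and 96.6 under starvation. The last 2 groups lay far above all the others at 24 h (3.29 ± 0.61 on Avicel, adjusted p = 4.57e-06, and 3.36 ± 0.61 under starvation, 3.33e-06). At 4 h the gene lay in one range on all media, with 54.6, 49.5 and 63.1 RPKM on xylan, 41.0, 50.6 and 45.9 on Avicel and 42.4 and 41.6 without carbon. The rise on xylan at 4 h passed the test (2.54 ± 0.61, 0.000327).

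Polyphosphate, the vacuole's phosphate store, is made by the polymerase Vtc4 and cut by an endopolyphosphatase. The endopolyphosphatase (OPB43688) was at 145, 147 and 128 RPKM at 0 h in WT, 386, 334 and 521 after 24 h on xylan and 309, 312 and 296 after 24 h of starvation, and at 72 h 462, 405 and 381 on xylan but 46.9 and 47.5 under starvation. The groups at 72 h lay on opposite sides of the 0 h libraries. Against 0 h it rose by 1.56 ± 0.38 on xylan (adjusted p = 0.000311) and fell under starvation (-1.55 ± 0.43, 0.00137), and the 2 media differed by 3.11 ± 0.43 (5.85e-09). With either of the 2 starved libraries left out, the adjusted p of the fall was 0.0153 or 0.0139. Vtc4 (OPB42144) was called in no WT comparison with 0 h.

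**Figure D3:**
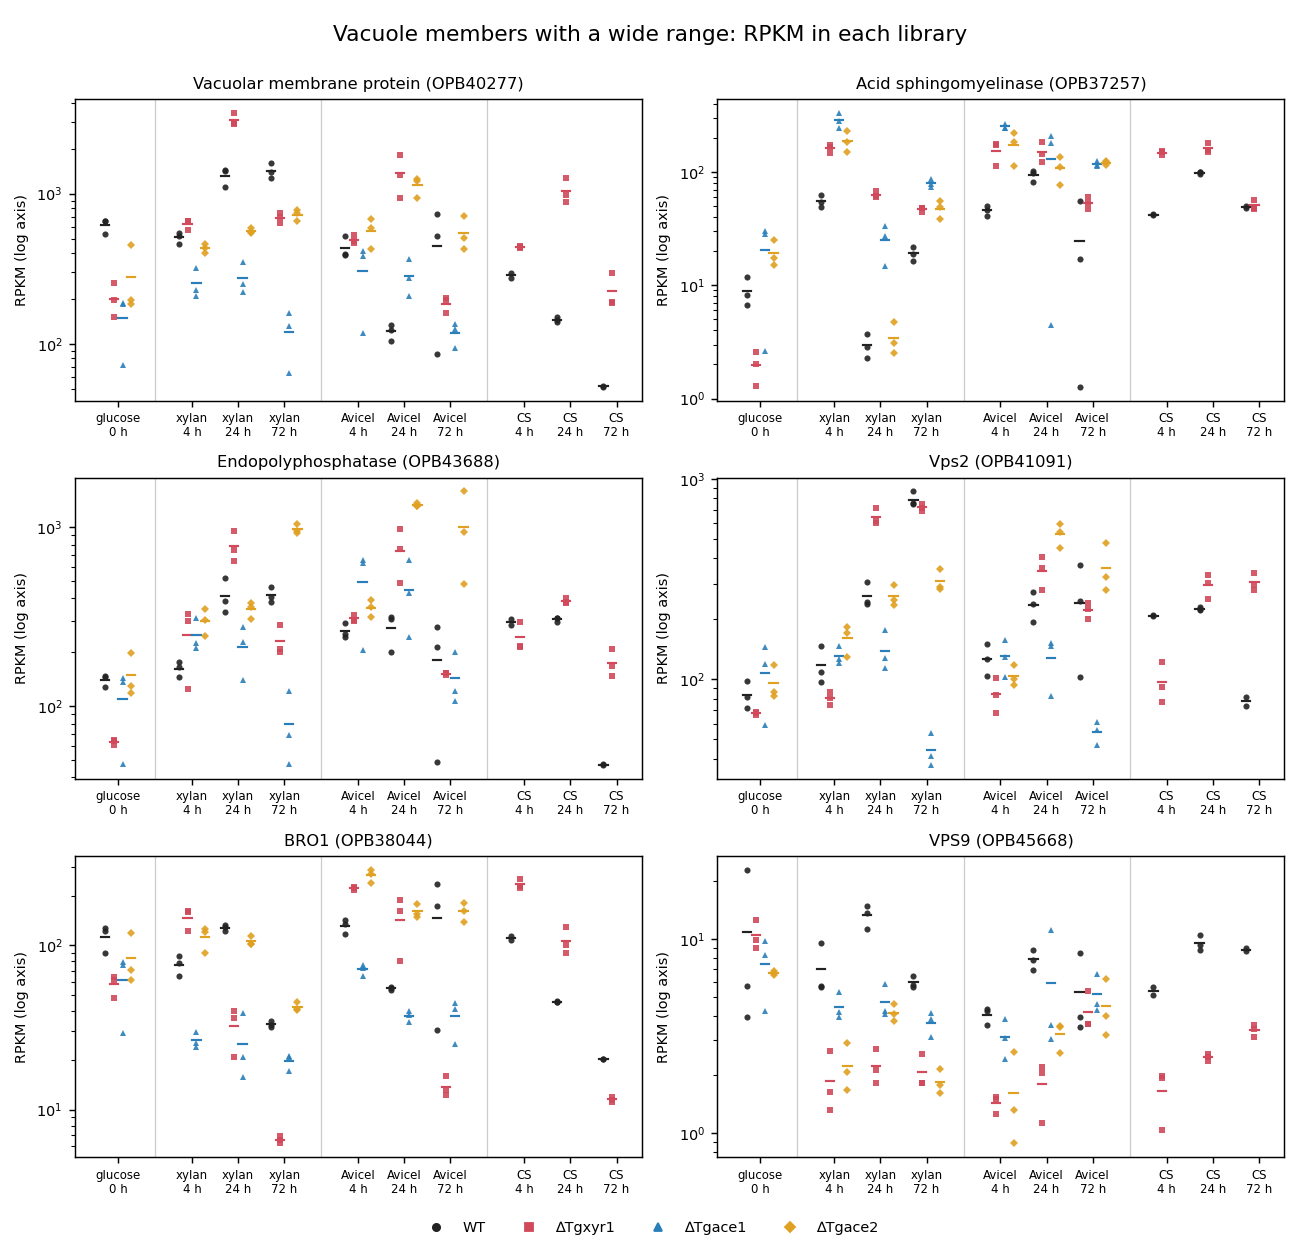
RPKM (log axis) of 6 members with wide ranges in every library, by medium and time, with the strains in separate colours, points for libraries and short bars for group means. In WT, OPB40277 and the acid sphingomyelinase run in opposite directions at 24 h, and VPS9 lies below WT in ∆Tgxyr1 on every medium and time after the transfer except Avicel at 72 h, where the libraries overlap.

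The catalytic subunit A of the proton pump (OPB37258) stayed between 54.9 and 89.5 RPKM in all WT libraries and was called in ∆Tgxyr1 on xylan at 72 h alone, where it was at 27.7, 28.7 and 24.4 RPKM (-1.10 ± 0.13 against WT, 1.22e-11). A proteolipid subunit (OPB38012) was at 75.5, 77.1 and 109.7 RPKM at 0 h against 33.6, 36.9 and 44.8 after 24 h on xylan and 36.9, 35.9 and 45.2 on Avicel, all below the 0 h libraries (-1.15 ± 0.20, adjusted p = 1.36e-06, and -1.12 ± 0.20, 1.38e-06). Without WT glucose 0 h replicate 3 the differences were -0.98 and -0.95, under the size needed for a call. VMA21 (OPB39442), an assembly factor of the pump, rose after 4 h on Avicel from 87.9, 101 and 56.4 RPKM to 167, 234 and 220.1 (1.35 ± 0.33, 0.000686, and 1.11 with an adjusted p of 0.0149 without WT glucose 0 h replicate 3) and fell after 72 h on xylan to 38.6, 25.6 and 13.5 (-1.70 ± 0.33, 1.13e-05). Vid24 (OPB40436), a subunit of the complex that marks enzymes of gluconeogenesis for breakdown, rose after 72 h on xylan from 85.4, 76.2 and 125 RPKM to 292, 305 and 303 (1.68 ± 0.21, 1.26e-10).

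In ∆Tgxyr1 the members were compared with the 0 h libraries of the same strain. On xylan 15 were higher (31.9% of all genes) and 20 lower (28.6%), on Avicel 16 (30.5%) and 18 (28.3%), and under starvation 17 (29.7%) and 18 (27.1%). At 24 h the counts were 11 higher and 15 lower on xylan (21.9% and 20.2%), 14 and 14 on Avicel (21.1% and 19.3%) and 13 and 15 under starvation (19.9% and 17.8%). By role, and with no test between roles, the counts were as follows. Of the 11 autophagy genes, 5 rose and 1 fell on xylan at 24 h, 5 and 0 on Avicel (limma's unadjusted p was under 0.05 for 2 lower ones), and 5 and 1 under starvation, with medians of 0.86, 0.90 and 0.57. Of the 31 tested sorting genes, 2 rose and 11 fell on xylan, 4 and 11 on Avicel and 3 and 10 under starvation, with medians of -0.53, -0.53 and -0.64. In WT at 24 h 2 of them rose (12.8% of all genes) and 1 fell (10.6%) on xylan. On Avicel 3 rose (17.4%) and 6 fell (17.2%), and under starvation 1 rose (15.6%) and 5 fell (16.0%). The WT medians were 0.03, -0.19 and -0.19.

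**Figure D4:**
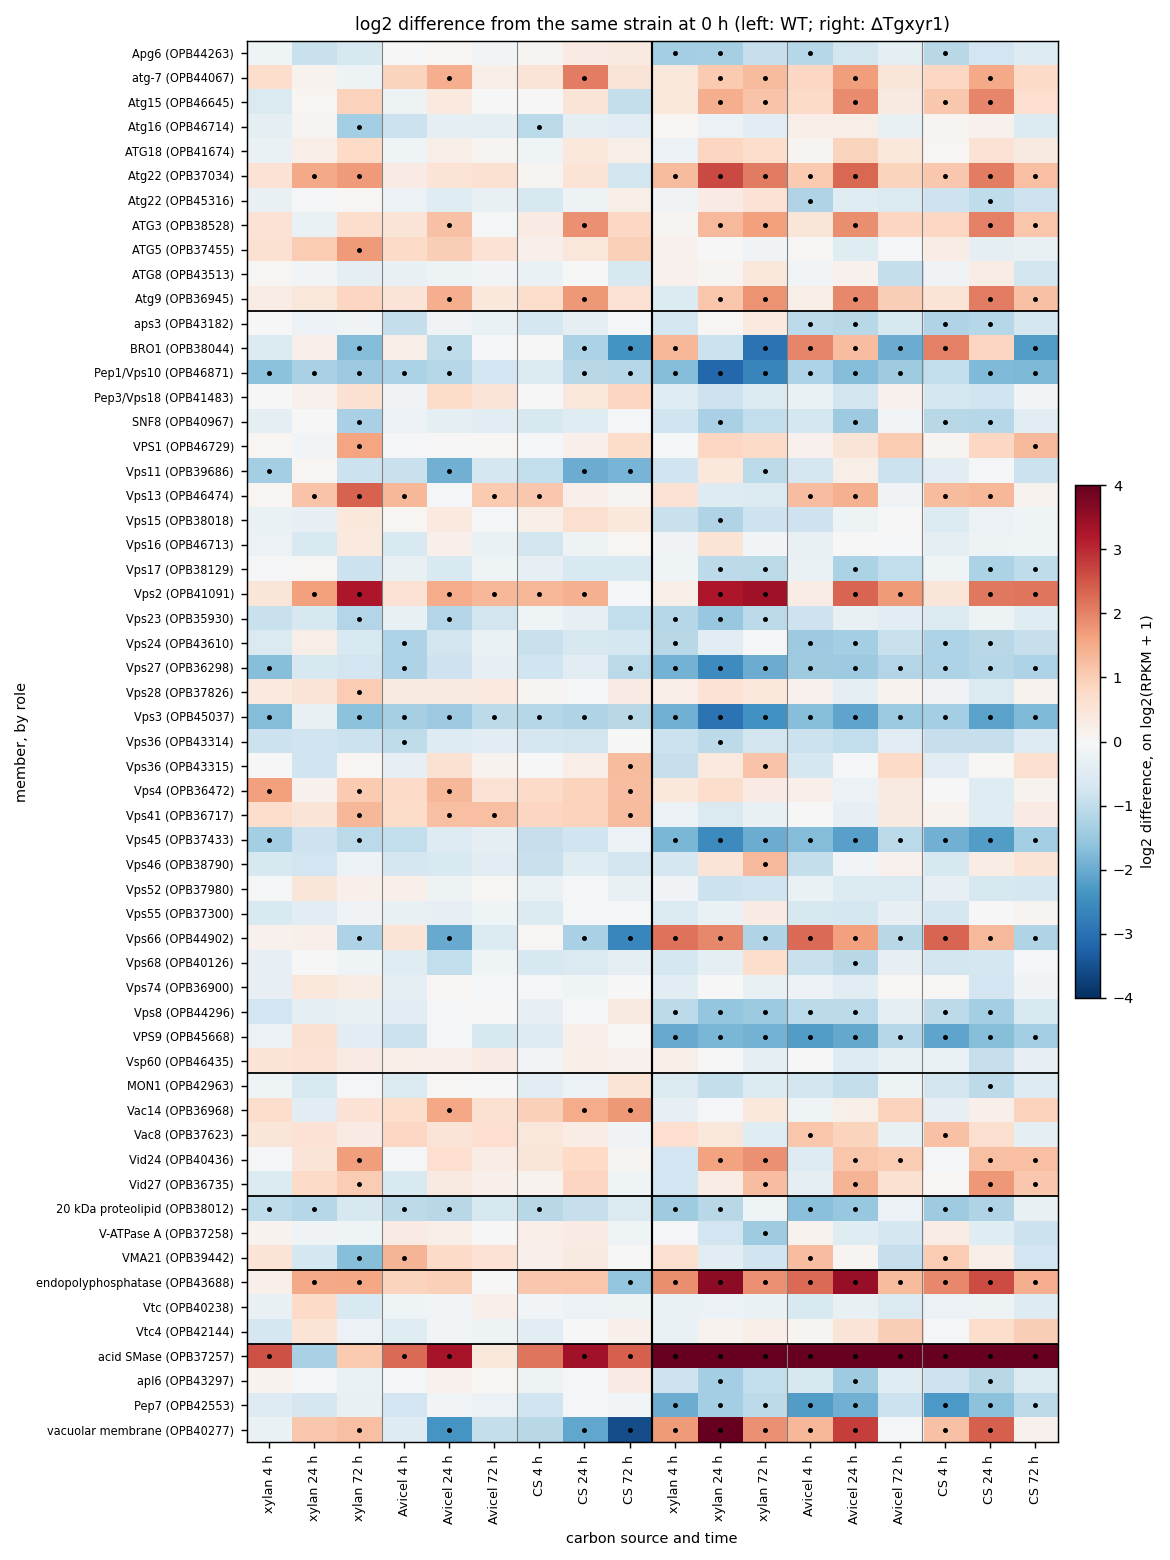
Colour gives the log2 difference from 0 h of the same strain for the 57 tested members (rows, by role) in WT and ∆Tgxyr1 (columns, by medium and time), with the scale ending at ±4 and dots on called values. At 24 h 10 or 11 of the 31 sorting genes carry a called fall in ∆Tgxyr1 (17.8% to 20.2% of all genes). In WT 1 to 6 of them do (10.6% to 17.2% of all genes).

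The 5 autophagy genes that rose at 24 h in ∆Tgxyr1 on each medium were ATG3, atg-7, Atg9, Atg15 and Atg22 (OPB37034). Atg15 was at 128, 141 and 135 RPKM at 0 h in this strain and at 393, 369 and 339.6 on xylan, 536, 378 and 606 on Avicel and 516, 619 and 434 under starvation. Every one of those libraries was above all WT libraries, whose highest value was 318 RPKM. The rise under starvation was 1.94 ± 0.20 (adjusted p = 4.49e-13), and against WT at 24 h Atg15 was higher on xylan (1.15 ± 0.20, 1.42e-06), on Avicel (1.26 ± 0.20, 1.72e-07) and under starvation (1.21 ± 0.20, 7.61e-07). Atg22 (OPB37034) was at 42.1, 44.1 and 45.3 RPKM at 0 h against 314, 255 and 272 after 24 h on xylan (2.65 ± 0.22, 3.51e-17).

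ATG3 in ∆Tgxyr1 rose on xylan too. It was at 159, 162 and 141 RPKM there after 24 h, all above the 47.5, 64.7 and 42.4 RPKM of WT (1.58 ± 0.28 against WT, adjusted p = 1.79e-06), and at 235, 304 and 233 under starvation, where the strains were not called different. ATG5 had the opposite order. On xylan at 72 h it was at 14.0, 9.22 and 9.23 RPKM in ∆Tgxyr1 against 29.8, 38.6 and 39.1 in WT (-1.65 ± 0.19, 2.41e-11). ATG8 differed in 1 of the 10 conditions, Avicel at 72 h, with 488, 535 and 597 RPKM in ∆Tgxyr1 against 916, 1144 and 1576 (-1.13 ± 0.20, 1.63e-06). The difference was -1.16 without WT Avicel 72 h replicate 2, which stood apart, and -0.93 without replicate 3 of that group, which ended the call. The call was also lost in a fit of only the groups compared (adjusted p = 0.122 by limma) and with array weights (-0.89).

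Compared with WT in the 10 matched conditions, 15 members were higher in ∆Tgxyr1 in at least 1 (43.8% of all genes) and 28 were lower (43.8%). Without the libraries that stood apart the counts were 16 and 30. On xylan at 72 h, 1 of the 31 sorting genes was higher (16.0% of all genes) and 12 were lower (16.3%), with a median of -0.64 beside 0.00. Vps41 was lower in 9 of the 10 conditions. After 24 h of starvation it was at 4.80, 4.00 and 3.88 RPKM in ∆Tgxyr1 and at 16.6, 17.8 and 16.5 in WT (-1.78 ± 0.17, adjusted p = 8.03e-14), and at 0 h it was at 6.06, 6.51 and 6.37 RPKM beside 9.65, 8.97 and 6.82, which was not called. Vps18 (OPB41483), of the core shared by HOPS and CORVET, was at 3.29, 2.66 and 3.0 RPKM beside 12.3, 11.6 and 11.6 under the same starvation (-1.69 ± 0.16, 7.04e-14).

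VPS9 was lower in 8 of the 10 conditions. On xylan at 24 h it was at 2.12, 2.70 and 1.80 RPKM in ∆Tgxyr1 and at 11.3, 14.9 and 13.7 in WT (-2.16 ± 0.30, adjusted p = 3.72e-09). Vps3 in the same libraries was at 1.24, 1.82 and 2.16 RPKM beside 14.8, 12.6 and 14.1 (-2.45 ± 0.22, 2.62e-15), Vps27 at 4.38, 5.30 and 4.29 beside 21.4, 18 and 24.8 (-1.98 ± 0.19, 5.55e-14), and Vps10 at 1.85, 2.43 and 2.23 beside 11.4, 7.92 and 10.9 (-1.80 ± 0.19, 1.6e-12). No library of one strain reached the range of the other in any of them. Vps45 (OPB37433), which works with Pep7 in the fusion of endosomes, was at 1.03, 0.846 and 1.83 RPKM against 5.19, 4.19 and 5.63 (-1.44 ± 0.19, 1.04e-09).

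Vps13 was the member with the largest loss. On xylan at 72 h it was at 9.64, 8.18 and 6.97 RPKM in ∆Tgxyr1 and at 108, 102 and 128 in WT (-3.62 ± 0.25, adjusted p = 6.82e-21). BRO1 was at 6.23, 6.53 and 6.90 RPKM beside 31.7, 32.5 and 34.6 there (-2.17 ± 0.32, 2.23e-08), but was higher than in WT after 24 h on Avicel, with 162, 79.9 and 187 RPKM beside 55.9, 53.6 and 54.7 (1.28 ± 0.32, 0.000437, and 1.04 with an adjusted p of 0.0103 without ∆Tgxyr1 replicate 3). Its direction against WT thus depended on the medium and time.

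The members that were higher in ∆Tgxyr1 were led by those of the vacuole's own functions. OPB40277 was at 150.1, 253 and 195 RPKM at 0 h, below all WT libraries of that time (-1.66 ± 0.37, adjusted p = 0.000404), and reached 3440.0, 2938 and 2927 after 24 h on xylan, the highest values of any member. On Avicel at 24 h it was at 1339, 932 and 1818 RPKM beside 124, 134 and 105 in WT (3.44 ± 0.37, 2.16e-12), and under starvation at 884, 1265 and 982 beside 149.7, 143 and 140.0 (2.83 ± 0.37, 1.92e-09). The acid sphingomyelinase was at 67.8, 61.1 and 60.2 RPKM after 24 h on xylan beside 2.28, 2.86 and 3.74 (4.03 ± 0.61, 5.13e-08). On Avicel and under starvation at 24 h the strains were not called different in this gene. Vps66 was at 309, 232 and 391 RPKM after 24 h on Avicel beside 67.6, 67.4 and 71.0 (2.13 ± 0.35, 4.03e-07).

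The difference between the strains in the 24 h response, each measured from its own 0 h, was tested directly. It passed for 25 of the 57 members on xylan (26.9% of all genes), for 18 on Avicel (33.1%) and for 18 under starvation (24.1%). On xylan the response was larger, that is more positive, in ∆Tgxyr1 for 12 members (14.0%) and smaller for 13 (12.9%), on Avicel for 8 (17.6%) and 10 (15.4%), and under starvation for 7 (14.1%) and 11 (10%). For OPB40277, which fell in WT and rose in ∆Tgxyr1 under starvation, the responses differed by 4.49 ± 0.53 (adjusted p = 3.5e-10). For the acid sphingomyelinase, which at 0 h was at 1.29, 2.01 and 2.58 RPKM in ∆Tgxyr1 and at 6.75, 8.18 and 11.9 in WT, they differed by 5.77 ± 0.87 on xylan (1.21e-07), and for Vps3 by -2.66 ± 0.31 (1.79e-10).

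**Figure D5:**
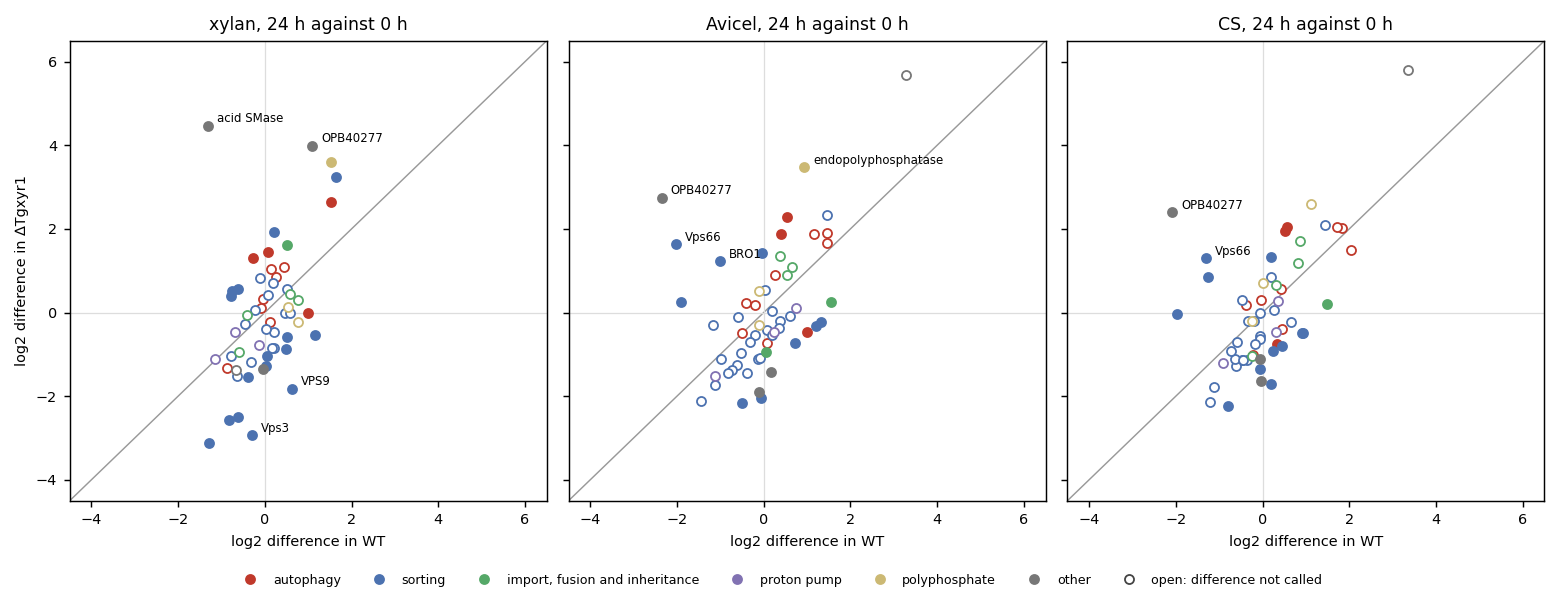
Log2 difference between 24 h and 0 h of the same strain for each tested member, WT on the horizontal and ∆Tgxyr1 on the vertical axis, 1 panel per medium. Filled points are the 25, 18 and 18 members whose responses differed between the strains, open points were not called, and the line marks equal responses. OPB40277 lies left of and above that line on all 3 media, by 2.89, 5.09 and 4.49.

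The 0 h libraries enter each of these values, as in Pep7 (OPB42553), a tether of endosomal fusion. In WT it was at 19.6, 20.3 and 56.5 RPKM at 0 h against 27.3, 27.4 and 27.6 after 24 h of starvation, while in ∆Tgxyr1 it was at 58.6, 33.3 and 37.6 and then at 15.7, 10.5 and 12.2. The 0 h libraries overlapped and the starved ones did not. Pep7 was lower than in WT under starvation at 24 h (-1.06 ± 0.20, adjusted p = 6.32e-06, -0.94 without ∆Tgxyr1 replicate 2, -0.97 with median scaling and -0.98 with array weights, each under the size needed for a call), and the responses differed by -1.61 ± 0.28 (3.64e-06, and 0.0156 with only the groups compared).

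Other genes of the same routes were counted as well, from lists chosen with earlier results of these data known. The vacuolar ATPase had 9 subunit genes outside the members, 0 of which were called after 24 h of starvation in WT (3 at an unadjusted p of limma under 0.05, all lower). In ∆Tgxyr1 0 rose (21.9% of all genes) and 2 fell (20.2%) on xylan at 24 h, the fallen share being near that of all genes. On Avicel 0 rose (21.1%) and 5 fell (19.3%). Under starvation 0 rose (19.9%) and 6 fell (17.8%), with a median of -1.03 and all 9 lower at the unadjusted p. The responses of the strains are not compared directly for these 9 genes. The proteasome, the other main route of protein breakdown, had 30 genes. In ∆Tgxyr1 1 rose and 26 fell after 24 h on xylan, 1 and 26 on Avicel and 1 and 27 under starvation, with medians of -1.65, -1.76 and -1.74, while in WT at most 2 fell at that time. The 24 h responses of the strains differed downward for 27, 24 and 22 proteasome genes on xylan, Avicel and no carbon. These counts cover genes chosen by annotation and are given as a description.

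Against WT in the 7 matched conditions, 8 members were higher in ∆Tgace1 in at least 1 (36.0% of all genes) and 24 were lower (33.6%). The counts were 10 and 21 without the libraries that stood apart, an alternative chosen after seeing the data, and the count of 8 was 4 with median scaling and 4 with only the groups compared in the fit. ATG8 was lower in 6 of the 7 conditions. At 0 h it was at 651, 596 and 520.2 RPKM beside 1169.5, 1248 and 1409 (-1.12 ± 0.20, adjusted p = 5.01e-06), on xylan at 72 h at 428, 435 and 465 beside 1065, 905 and 952 (-1.13 ± 0.20, 1.19e-06), and on Avicel at 72 h at 364, 325 and 421 beside 916, 1144 and 1576 (-1.68 ± 0.20, 8.66e-11). Without the libraries that stood apart the differences at 0 h and on Avicel at 72 h were -1.03 and -1.80. In all 7 conditions every ∆Tgace1 library was below every WT library. On Avicel at 4 h, with 549.7, 594 and 622 RPKM beside 1112, 1053 and 950.1, the difference was under the size needed for a call.

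Counted over all 11 autophagy genes, the most calls in ∆Tgace1 came on Avicel at 24 h and on xylan at 72 h. On Avicel at 24 h 0 were higher (10.6% of all genes) and 4 were lower (11%, and 0 and 7 at an unadjusted p of limma under 0.05), with a median of -0.77 beside 0.00 over all genes, and on xylan at 72 h 1 was higher (13.9%) and 4 were lower (18.3%), with a median of -0.71 beside 0.08. In each of the other 5 conditions at most 2 of the 11 were lower. The counts on Avicel at 24 h include the ∆Tgace1 library that stood apart, and no count without it is given. Atg9 was at 6.16, 17.4 and 19.9 RPKM on Avicel at 24 h, the first being the library that stood apart, beside 56.6, 61.3 and 42.2 in WT (-1.94 ± 0.22, 1.59e-11, and -1.45 without that library). With only the groups compared in the fit, the adjusted p of Atg9 by limma was 0.0191, which ended that call. Atg15 on xylan at 72 h was at 102, 97.9 and 90.5 RPKM beside 297, 318 and 280.1 (-1.61 ± 0.20, adjusted p = 2.3e-10), and ATG18 at 25.7, 23.3 and 26.0 beside 57.8, 55.5 and 60.2 (-1.18 ± 0.15, 3.71e-10).

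The largest losses of ∆Tgace1 were on xylan at 72 h, where none of its libraries stood apart. Vps2 was at 53.8, 37.2 and 41.1 RPKM beside 864, 755 and 744 in WT (-4.14 ± 0.25, adjusted p = 5.34e-24), with no overlap, and below the 145, 119 and 58.9 RPKM of its own 0 h libraries. OPB40277 was at 161, 63.8 and 132 RPKM beside 1590.0, 1276 and 1404 (-3.67 ± 0.37, 1.63e-13), Vps13 at 9.35, 8.96 and 9.56 beside 108, 102 and 128 (-3.46 ± 0.25, 5.79e-20), and the endopolyphosphatase at 122, 47.5 and 68.8 beside 462, 405 and 381 (-2.48 ± 0.38, 7.91e-08). Vid24 was at 74.6, 61.9 and 73.3 RPKM beside 292, 305 and 303 (-2.09 ± 0.21, 6.34e-14).

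The acid sphingomyelinase was higher in ∆Tgace1 than in WT in 5 of the 7 conditions. After 4 h on xylan it was at 279.8, 331 and 246 RPKM beside 54.6, 49.5 and 63.1 (2.33 ± 0.61, adjusted p = 0.00151), and after 72 h on Avicel at 126, 114 and 115 beside 17.0, 55.6 and 1.27 (3.17 ± 0.61, 1.63e-05, 4.24 without the libraries that stood apart in both strains, and an adjusted p of 0.159 with only the groups compared in the fit). VPS1 (OPB46729), a dynamin-like protein, had its highest values in this strain. Another gene, OPB40071, is annotated as a dynamin-like GTPase Vps1. It was not a member, since its annotation does not name the vacuole, and its values are not given here. On xylan at 24 h it was at 10.3, 1.38 and 9.98 RPKM beside 0.139, 0.149 and 0.153 in WT (2.54 ± 0.44, 1.76e-06), the middle one being the library that stood apart. On Avicel at 72 h it was at 1.34, 1.28 and 40.0 RPKM, where the highest is replicate 3, which stood apart. Without the libraries that stood apart the difference on xylan at 24 h was 3.28 (adjusted p = 1.35e-18). With only the groups compared in the fit, its adjusted p by limma was 0.0104, which ended that call.

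In ∆Tgace2, 9 members were higher than in WT in at least 1 of the 7 conditions (32.3% of all genes) and 19 were lower (27.3%). Without the libraries that stood apart the counts were 10 and 19. The endopolyphosphatase was at 1308, 1370.3 and 1311 RPKM after 24 h on Avicel beside 307, 314 and 201 in WT (2.30 ± 0.38, adjusted p = 5.72e-07) and at 482, 1582 and 939 beside 277, 48.8 and 215 at 72 h (2.64 ± 0.38, 5.01e-08). All ∆Tgace2 libraries were above all WT libraries at both times, and without WT Avicel 72 h replicate 2 the later difference was 1.87. Its adjusted p was 0.129 with only the groups compared in the fit, which ended that call. OPB40277 was at 1253, 1224 and 939 RPKM on Avicel at 24 h beside 124, 134 and 105 (3.22 ± 0.37, 3.6e-11), but at 586, 558 and 549 on xylan at 24 h beside 1109, 1441 and 1412 (-1.22 ± 0.37, 0.00829). Leaving out any 1 of these 6 xylan libraries moved that adjusted p above 0.01, to between 0.0127 and 0.0322. Vps66 was at 288, 282 and 380.2 RPKM on Avicel at 24 h beside 67.6, 67.4 and 71.0 (2.18 ± 0.35, 3.59e-07).

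Lower in ∆Tgace2 were Vps13 on xylan at 72 h, with 12.8, 13.3 and 13.3 RPKM beside 108, 102 and 128 (-3.0 ± 0.25, adjusted p = 7.87e-17), and Vps41 on Avicel at 24 h, with 6.75, 6.49 and 7.14 RPKM beside 23.1, 18.4 and 20.7 (-1.48 ± 0.17, 5.62e-11). Vps36 (OPB43315), of ESCRT-II, was at 19.6, 17.6 and 17.7 RPKM on Avicel at 24 h beside 61.5, 57.3 and 63.6 (-1.68 ± 0.26, 1.76e-07). A second gene annotated as Vps36, OPB43314, has the neighbouring identifier, and it was not called in this comparison. Vps13 on xylan at 72 h was thus lower in all 3 mutants. These 3 comparisons share the WT libraries.

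Among the autophagy genes of ∆Tgace2, Atg9 on xylan at 24 h was at 7.76, 11.2 and 8.42 RPKM beside 25.2, 26.1 and 26.0 (-1.42 ± 0.22, adjusted p = 4.12e-07), and Apg6 on Avicel at 72 h at 4.18, 2.71 and 4.54 beside 5.78, 16.7 and 8.38, where the highest WT value is the library that stood apart (-1.13 ± 0.23, 6.39e-05). Without that library the difference was -0.75 and was not called, nor was it without ∆Tgace2 replicate 2 (-0.96). The low Atg22 gene OPB45316 was at 9.11, 8.16 and 3.71 RPKM at 0 h in ∆Tgace2 and at 5.46, 6.62 and 10.7 in ∆Tgace1, all above the 3.18, 2.84 and 1.47 RPKM of WT (1.15 ± 0.26, 0.00058, and 1.29 ± 0.26, 6.79e-05). The call in ∆Tgace2 was lost without WT replicate 3 (0.92) or ∆Tgace2 replicate 1 (0.95), and with a pseudocount of 2 (0.96). The difference in ∆Tgace1 was 1.04 without its replicate 3, and its call was lost with array weights (0.86). With only the groups compared in the fit, both calls were lost (adjusted p by limma 0.0464 in ∆Tgace2 and 0.0375 in ∆Tgace1). In ∆Tgxyr1 OPB45316 was at 6.64, 2.97 and 7.23 RPKM at 0 h, which overlapped with WT and was not called.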

How the data were processed

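The deposited table holds RPKM values for 11244 genes in 100 libraries. The authors made these RPKM values from polyadenylated RNA sequenced as Illumina read pairs, with reads trimmed by the FASTX-Toolkit, aligned with Bowtie2 and TopHat2, and quantified and normalised across libraries with Cufflinks and Cuffnorm. Software versions are not given in the sources used here. The values are not counts, and the number of reads behind a value is not given. To compare replicate pairs, reads were inferred for 2551 genes from the steps between their low values. From the smallest steps between values of low genes, 1 read was worth 0.366 to 2.73 times as much as in the median library. In 98 of 98 replicate pairs the values differed by more than counting noise, so that every library was counted.

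Values were taken as log2(RPKM + 1) and fitted with limma 3.58.1 in R 4.3.3 (trended variance, 1 model with 34 group means, 66 residual degrees of freedom) on 10026 genes, those that passed 1 RPKM in 2 or more libraries. Contrasts compared each time with 0 h of the same strain, mutants with WT in the same condition, media within WT, and the 24 h responses of ∆Tgxyr1 and WT. In simulated data with 1 spread per gene shared by all groups, 50 genes were raised and 50 lowered by 1.5 (log2) in WT starvation at 24 h. Against 0 h, 86% of the raised and 74% of the lowered genes were called, as were 0.0221% of unchanged genes. In the test of the difference in response between the strains, 60% and 62% were called. The real groups differed in spread (median SD of log2 values 0.0442 to 0.885), so these rates need not hold for groups with more spread. A library stood apart where its mean correlation with its group was under 0.95 and its nearest library was in another group. The members, the gene lists and the tests were chosen with earlier results of these data known. Named were all autophagy genes, the members with the largest called changes in each comparison or response, and those with the highest and lowest medians. Vps23, Vac8, Vtc4, the pump subunits OPB37258 and OPB38012 and the Vps36 gene OPB43314 were named after their values were seen. Alternatives were another pseudocount, no filter on low values, scaling to equal medians, fits of only the groups compared, a replicate block, array weights and leaving out libraries. Sequences and coordinates were not used here.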

Additional observations from a re-analysis of the deposited data

Results flagged for a closer look

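The 24 h response, measured from 0 h of the same strain, differed between ∆Tgxyr1 and WT in 61 tests of single members (the interaction term of the limma model, adjusted p of at most 0.01 and a difference of at least 1), and each is given as the response in ∆Tgxyr1 minus that in WT on the log2(RPKM + 1) scale. The 0 h libraries of both strains enter all 3 media, so the values for 1 gene on different media are not independent. WT glucose 0 h replicate 3 held the highest of the 3 values at 0 h for VPS9, Vps3, Pep7 and Apg6.

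Among the autophagy genes, the response was larger in ∆Tgxyr1 for Atg15 on xylan (1.36), Avicel (1.48) and without carbon (1.42), for Atg22 (OPB37034) on the same media (1.13, 1.75 and 1.49), and for ATG3 on xylan (1.59). It was smaller for ATG5 on xylan (-1.01) and Avicel (-1.46) and for Apg6 under starvation (-1.09).

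Of the receptors and the ESCRT machinery, the response was smaller for Vps27 (-1.88), Vps10 (-1.85) and SNF8 of ESCRT-II (-1.32) on xylan, and for Vps4 on Avicel (-1.54) and without carbon (-1.39). The ESCRT-III related Vsp60, spelt so in the annotation, was smaller without carbon (-1.17). It was larger on xylan for Vps2 (1.59), Vps46 (1.26) and Vps36 (OPB43315, 1.19), and for BRO1 on Avicel (2.22) and without carbon (2.13).

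Among tethering and fusion factors, the response was smaller for VPS9 (-2.45 on xylan, -1.98 on Avicel, -1.90 without carbon), Vps45 (-1.73, -1.65 and -1.44), Vps41 (-1.08, -1.54 and -1.42) and the AP-3 adaptor subunit apl6 (-1.31, -1.57 and -1.05). It was also smaller for Vps3 on xylan (-2.66), Vps8 on xylan (-1.15) and without carbon (-1.32), Vps18 on Avicel (-1.48) and without carbon (-1.27), Pep7 on these media (-1.80 and -1.61), and MON1, a subunit of the exchange factor of a Rab7-type GTPase, on Avicel (-1.01). The core subunits did not move together, since Vps11 was larger on Avicel (2.15) and without carbon (1.93) and Vps16 larger on xylan (1.17). Vps52, of a complex that tethers vesicles at the Golgi (-1.36), and Vps17, of the retromer coat (-1.09), were smaller on xylan.

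Vps13 changed sign with the medium, with -1.69 on xylan and 1.49 on Avicel and 1.14 without carbon. Vps66 was larger on all 3 media (1.73, 3.65 and 2.59), as was OPB40277 (2.89, 5.09 and 4.49). The acid sphingomyelinase was larger on xylan (5.77), the endopolyphosphatase on xylan (2.06) and Avicel (2.53), and Vid24 on xylan (1.11). Vac14 was smaller on Avicel (-1.31) and without carbon (-1.29).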

How the results depend on the processing

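All 17 counts of members kept within 1.5 times of their value under another pseudocount (0.1 or 2), without the filter on low values and with a replicate block, as did the 8 that could be counted without the libraries that stood apart, an alternative added after seeing the data. The replicate block left the count of members lower under starvation in WT at 10 and changed no call printed here. Replicate numbers did not pair the libraries, since the mean correlation of deviations was 0.000446 for the same number and -0.000237 for others, the lowest same-numbered pair was at -0.488, and 38 of 100 libraries correlated best with their own number. Libraries from the same culture but with unlike numbers would not be found in this way. The starvation count of 10 was 5 with array weights and ran from 5 to 13 with 1 library left out, 5 being without WT glucose 0 h replicate 3. Where this left 1 library in a WT starvation group, it was assumed to vary like the other groups. The 8 members higher in ∆Tgace1 than in WT were 4 with median scaling and 4 with only the groups compared in the fit. Median scaling moved the median of all genes by more than 0.1 in 21 comparisons, at most by -0.29 for WT starvation at 72 h. Of the 105 differences printed for members, 4 lost their call with median scaling, 11 with only the groups compared, 6 with array weights and 2 with a pseudocount of 2, and none changed direction in any setting. ATG3 on Avicel at 24 h in WT was then at 0.99 with median scaling, as was Vps41 at 72 h of starvation. The call of Pep7 in ∆Tgxyr1 under starvation was lost with median scaling (-0.97) and array weights (-0.98). With only the groups compared, the adjusted p on Avicel at 72 h was 0.159 for the acid sphingomyelinase in ∆Tgace1 and 0.129 for the endopolyphosphatase in ∆Tgace2. ATG8 in ∆Tgace1 on Avicel at 72 h was at -1.68 but with an adjusted p of 0.12 in a fit of only the groups compared, and at 0 h at -0.97 with array weights. The cause was not tested. Without the libraries that stood apart, 1 of 9 calls was lost, that of Apg6 in ∆Tgace2 on Avicel at 72 h (-0.75). Read depth is not given, and the counting error of low members such as VPS1 was not estimated.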

Other observations

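Further values of single members were as follows. Vac8 (OPB37623), which acts in vacuole inheritance, was at 141, 144 and 147 RPKM at 0 h in WT and at 185, 179 and 181 after 72 h on xylan, against 66.6, 72.1 and 58.7 in ∆Tgxyr1 (-1.46 ± 0.16, adjusted p = 5.9e-12 by limma). Vps46 (OPB38790), of the ESCRT-III family, went the other way on the same medium and time, with 329, 289.6 and 287 RPKM in ∆Tgxyr1 against 110.2, 117 and 88.0 in WT (1.52 ± 0.20, 5.16e-10). Vps52 (OPB37980) was at 7.52, 10.2 and 9.47 RPKM after 24 h on xylan in ∆Tgxyr1, below the 27.7, 25.9 and 22.1 of WT (-1.39 ± 0.16, 2.61e-11). Vid27 (OPB36735) rose in ∆Tgxyr1 under starvation, from 39.4, 55.6 and 53.7 RPKM to 158, 189 and 146 at 24 h (1.72 ± 0.15, 1.17e-16), and the response was not called different from that of WT.

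Gene lists outside the members are given as counts after 24 h. Of 17 SNARE and syntaxin genes, which drive membrane fusion, 7 fell in WT on Avicel (17.2% of all genes) and 7 without carbon (16.0%), with medians of -0.82 and -0.75, and 3 fell (10.6%) and 1 rose (12.8%) on xylan. Of the 4 tested genes of the vacuolar protease list, which holds a sorting nexin by its annotation, 2 rose (15.6%) and 1 fell (16.0%) under starvation in WT, with a median of 1.03. Of 8 further Vps genes, 1 rose (21.9%) and 4 fell (20.2%) on xylan in ∆Tgxyr1, with a median of -0.87, and of 7 genes of phosphatidylinositol 3-phosphate and sorting nexins 3 fell there, with a median of -0.90. Of the 3 genes for TOR, Snf1 and Sch9 kinases, 1 rose and 2 fell in the same libraries.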
